A study of Rattus norvegicus with 3 samples.

Results

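The 9 genes described here are the main signals and receptors of the VEGF and angiopoietin systems: the ligands Vegfa, Vegfc, Angpt1 and Angpt2 and the receptors Kdr, Flt1, Flt4, Tek and Tie1. They were chosen by name from 34034 genes in the count table, and all 9 were detected. Their levels were followed over the cell labels that the authors gave to thymic stromal cells, with the question of which cells held the ligands and which held the receptors. The thymi came from 8-week-old Lewis rats, an inbred strain, with no treatment or genetic change named in the labels. From them a droplet library of CD45-negative stromal cells, a droplet library of thymocytes and a Stereo-seq spatial section were made. The labels do not give the number of animals. CD45 is a surface protein of blood-derived cells, and the stroma was enriched for cells without it by magnetic beads and flow sorting, so cell numbers per label follow the sort and not the organ. Each of the 3 groups had 1 sample. No test was run, no p-value is given, and all intervals are 95% intervals that cover counting error only, with neither animal nor library variation in them. The section was not used here, because its files hold no values per gene.

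VEGF ligands are secreted proteins that act on receptor tyrosine kinases of vessel cells. Vegfa binds Kdr (VEGF receptor 2), which drives endothelial growth, and Flt1 (VEGF receptor 1), which binds it tightly and can act as a trap, while Vegfc binds Flt4 (VEGF receptor 3), the receptor known from lymphatic endothelium, and Kdr. Angpt1 activates the receptor Tek (also called TIE2), Angpt2 competes with it and is stored in endothelial cells, and Tie1 is a partner of Tek without a well established ligand of its own. In the thymus, blood vessels are the route by which progenitors enter and mature T cells leave.

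Of 16160 barcodes in the stromal library, 13226 carried a label and 2934 did not. Labelled cells summed to 131624350 UMIs (unique molecular identifiers, 1 for each RNA molecule captured), and the median cell had 9087.5. Values below are CPM, the UMIs of a gene per 1000000 UMIs summed over the cells of 1 label, for the 24 of 29 labels with at least 20 cells. Endothelium means the labels aEC, capEC and vEC pooled, 1070 cells or 8.09% of labelled cells, with a median of 7188 UMIs against 9224 in the other 21 labels. The thymocyte library held 8546 labelled cells with a median of 3994 UMIs. The libraries shared 38 barcodes, 28 of them labelled in both. Despite the sort, 1095 labelled stromal cells carried the labels Myeloid, B cell or Thymocyte. Doublets were neither called nor removed.

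The files do not spell out the label abbreviations, so the endothelial labels were checked against markers. The summed level of 7 endothelial genes (Pecam1, Cdh5, Cldn5, Egfl7, Emcn, Eng and Esam) was 4837 CPM in capEC, 4049 CPM in vEC and 3889 CPM in aEC, against 64.0 CPM in capFb and 68 CPM in the epithelial label early Pr. Among the other labels it was highest in nmSC at 995 CPM, then in aaTEC2 at 405 CPM and TMC4 at 402 CPM. Within endothelium, the venular adhesion gene Selp was at 872 CPM in vEC and 42.0 CPM in capEC. Gpihbp1, which anchors lipoprotein lipase on capillaries, was at 1896 CPM in capEC and 130 CPM in vEC. Gja4, a connexin of arteries, was at 207 CPM in aEC and 93.7 CPM in capEC, but it was the only one of 6 arterial genes higher in aEC than in capEC beyond counting error. For capEC over aEC, Gja5 was at 1.25, Efnb2 at 0.976, Sox17 at 1.00, Hey1 at 0.767 (0.579 to 1.03) and Bmx at 0.684 (0.414 to 1.18). Plvap, on the list of capillary genes, went the other way, at 1765 CPM in capEC and 2686 CPM in vEC. Ephb4, on the list of venous genes, did not differ beyond counting error (capEC over vEC 1.13, 0.975 to 1.32). The other genes of both lists set capEC and vEC apart, and most of the arterial list did not set aEC apart from capEC. The summed fibroblast list stood at 8303 CPM in aEC and 3684 CPM in capEC, against 46331 CPM in capFb. Labels with markers of several types recur below, and where no value is given beside a result the part of this RNA in it was not tested.

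The receptors were high together in the endothelial labels, so the sequence before their starts is shown beside that of Vegfa, which does not. RefSeq's table for the GRCr8 build held promoter windows for 6 of the 9 genes. The 250 bases before the start are printed for the receptors Flt1, Tie1, Kdr and Flt4 and for the first of the starts listed for Vegfa. Capitals mark AGGAAG or its reverse complement CTTCCT, an ETS-type core of the kind bound by factors active in endothelium, and GGGCGG or CCGCCC, the GC box. Both strands were searched and the motifs do not overlap each other.
Flt1: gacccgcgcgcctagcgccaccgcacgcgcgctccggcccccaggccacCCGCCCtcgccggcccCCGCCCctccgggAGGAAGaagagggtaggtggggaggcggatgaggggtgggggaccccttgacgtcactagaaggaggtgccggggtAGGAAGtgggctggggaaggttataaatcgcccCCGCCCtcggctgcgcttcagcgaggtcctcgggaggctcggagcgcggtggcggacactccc
Tie1: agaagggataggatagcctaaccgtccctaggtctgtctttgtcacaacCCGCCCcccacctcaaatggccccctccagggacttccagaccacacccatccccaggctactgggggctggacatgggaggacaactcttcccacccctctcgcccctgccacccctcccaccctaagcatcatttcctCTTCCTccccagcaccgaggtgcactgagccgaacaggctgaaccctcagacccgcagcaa
Kdr: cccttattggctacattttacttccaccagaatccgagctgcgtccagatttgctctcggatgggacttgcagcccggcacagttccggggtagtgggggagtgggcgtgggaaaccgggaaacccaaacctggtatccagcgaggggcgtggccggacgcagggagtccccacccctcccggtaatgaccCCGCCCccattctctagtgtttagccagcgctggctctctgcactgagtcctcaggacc
Flt4: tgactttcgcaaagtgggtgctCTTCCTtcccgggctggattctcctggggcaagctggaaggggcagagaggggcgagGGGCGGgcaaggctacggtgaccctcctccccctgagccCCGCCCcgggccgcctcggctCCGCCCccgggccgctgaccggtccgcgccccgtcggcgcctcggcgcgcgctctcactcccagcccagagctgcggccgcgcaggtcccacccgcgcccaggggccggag
Vegfa: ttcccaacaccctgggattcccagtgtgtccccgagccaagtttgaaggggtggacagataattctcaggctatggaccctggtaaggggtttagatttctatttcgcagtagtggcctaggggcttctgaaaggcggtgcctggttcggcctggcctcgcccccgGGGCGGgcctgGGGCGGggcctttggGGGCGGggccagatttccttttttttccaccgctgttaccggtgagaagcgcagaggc

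These windows lie at chr12:12333180-12333429 on the plus strand for Flt1, chr5:137304982-137305231 on the minus strand for Tie1, chr14:32571813-32572062 on the plus strand for Kdr, chr10:34414584-34414833 on the plus strand for Flt4 and chr9:22452604-22452853 on the plus strand for Vegfa, and each reads 5′ to 3′ along its gene. The ETS-type core occurred in Flt1 at 172 and 96 bases before the start, in Tie1 61 bases before it and in Flt4 228 bases before it, and not in the Kdr or Vegfa window. It also occurred in 29.5% of all 33469 windows, and in 33.2% of windows of genes at least 3-fold higher in endothelium. The GC box occurred in all 5 windows printed, against 30.5% of all windows, 46.3% of windows of the genes tested and 38.2% of windows of genes at least 3-fold higher in endothelium. ACGTG or CACGT, the core of the hypoxia response element, was in none of the 5 and in 16.6% of all windows. A match is a description of letters, and its absence says nothing of sites outside these bases.

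All 5 receptors were higher in endothelium, and the 4 ligands were split. Pooled endothelium over the other 21 labels pooled was at least 3-fold higher for 6 of the 9 genes and at least 3-fold lower for Vegfa and Angpt1, with Vegfc in neither group. The 6 higher genes were the receptors and the ligand Angpt2. Of 19880 genes with at least 20 UMIs, 6.44% were at least 3-fold higher in endothelium and 16.3% at least 3-fold lower. The median ratio was 10.1 over the 9 genes and 0.816 over all genes tested.

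**Figure D1:**
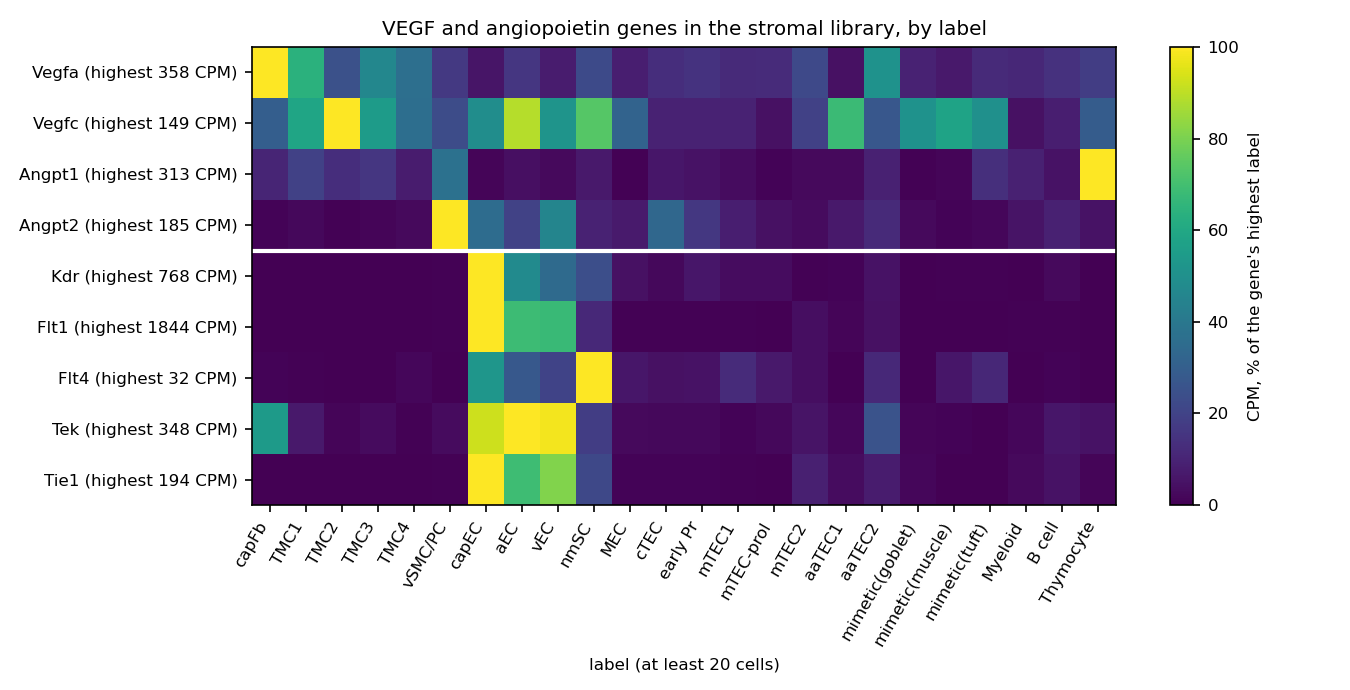
Level of each of the 9 genes (rows, ligands above the white line and receptors below) in each stromal label of at least 20 cells (columns), as a percent of the gene's highest label, whose CPM stands beside the name. The rows of Flt1, Tek and Tie1 are bright in capEC, aEC and vEC, and Tek has a further bright cell in capFb. Kdr peaks in capEC and Flt4 in nmSC, and both are dimmer in aEC and vEC. No ligand row peaks in an endothelial label, with Vegfa highest in capFb at 358 CPM. Vegfc is nearly as high in aEC (132 CPM) as in TMC2 (149 CPM), its highest label.

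**Figure D2:**
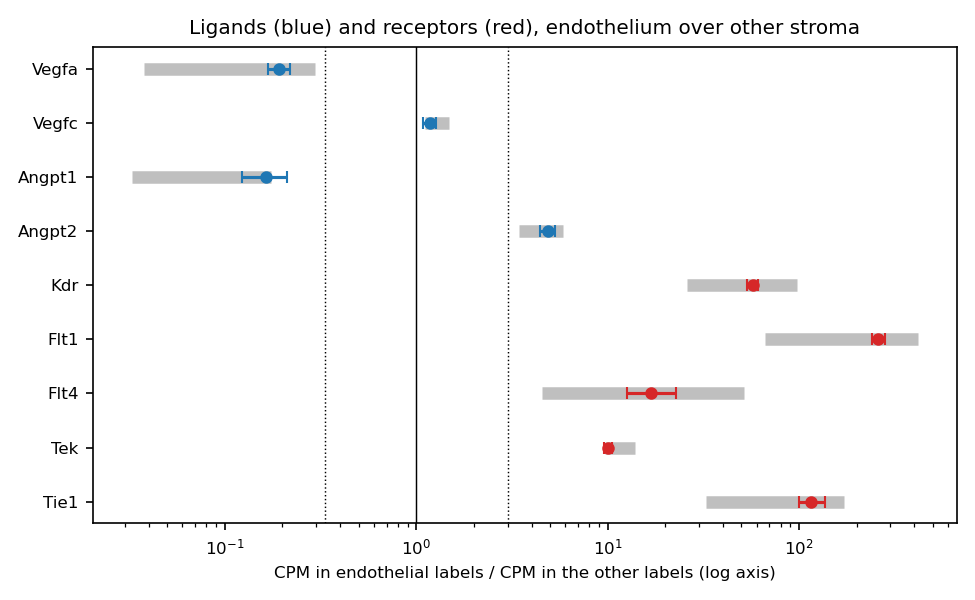
Ratio of CPM in pooled endothelium over the other labels pooled (log axis), with 95% counting intervals, for ligands (blue) and receptors (red). Grey bars span the values under the other settings tried, the solid line marks equal levels and the dotted lines 3-fold, and the ratios run from 0.163 for Angpt1 to 259.5 for Flt1, and all 5 receptors and Angpt2 lie above 3-fold.

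Vegfa, the main growth factor for blood vessels, was a fibroblast signal in this library. The 5 labels grouped as fibroblast (capFb and TMC1 to TMC4, with a summed fibroblast list of 8101 to 46331 CPM) held 62.3% of the cells and 85.8% of the Vegfa UMIs, and endothelium held 1.37%. The level was 358 CPM in capFb (349 to 368, 5792 UMIs), 229 CPM in TMC1, 166 CPM in TMC3, 132 CPM in TMC4 and 88.2 CPM in TMC2. The order among these fibroblast labels was therefore wide, with capFb 4.06-fold (3.87 to 4.26) over TMC2 and 1.57-fold (1.5 to 1.63) over TMC1. Outside them, aaTEC2 reached 183 CPM, but in 29 cells whose fibroblast list summed to 29264 CPM. In endothelium Vegfa was at 20 CPM in capEC, 27.4 CPM in vEC and 56.2 CPM in aEC, 17.9-fold (14.5 to 22.3) lower in capEC than in capFb. Most of this lay in the authors' cluster Endo-2: of the 45 UMIs in aEC, 44 were in 29 Endo-2 cells (119 CPM), where the fibroblast collagen Col1a1 was at 3648 CPM. In the Endo-1 cells Vegfa was at 2.31 CPM in aEC (1 UMI), 6.81 CPM in capEC and 8.81 CPM in vEC, so the order of the whole labels did not hold there.

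A Vegfa UMI was found in 94.3% of capFb cells, at a median of 11378.5 UMIs, against 10.5% of the cells labelled Thymocyte, at a median of 2648. After each cell was thinned to 1000 UMIs the shares were 29.2% and 2.07%. Fibroblast labels together were 4.0-fold (3.83 to 4.18) over all other labels for Vegfa and 3.03-fold (2.87 to 3.20) for Vegfc, against 6.69% of genes that were at least 3-fold higher there. Vegfa and Vegfc were the only ones of the 9 genes past that ratio. For Angpt1 the same ratio was 1.35.

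Vegfc, the ligand best known for lymphatic growth, peaked in another fibroblast label than Vegfa and was shared with the label aEC. Its highest levels were 149 CPM in TMC2 (144 to 153) and 132 CPM in aEC (108 to 160), which did not differ beyond counting error, and after thinning aEC was the higher (TMC2 at 0.852 of aEC). Next came nmSC at 109 CPM, aaTEC1 at 102 CPM, TMC1 at 87.7 CPM and TMC3 at 81.6 CPM. TMC2 was 3.33-fold (3.08 to 3.61) over capFb, the label that led for Vegfa. The ligands of the blood and lymphatic branches thus had opposite orders in capFb and TMC2. The fibroblast gene Col1a1 was at 3648 CPM in the aEC cells of the authors' cluster Endo-2 and at 41.7 CPM in the 61 aEC cells of cluster Endo-1, and in the latter Vegfc was at 127 CPM (95.9 to 166), about the level of the whole label. Within endothelium aEC was 1.82-fold (1.45 to 2.27) over capEC, and pooled endothelium was close to the rest at 1.18-fold (1.09 to 1.27). A Vegfc UMI was in 56.8% of TMC2 cells and 7.30% of Thymocyte-label cells, or 12.2% and 0.517% after thinning.

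Angpt1, the activating ligand of Tek, was highest in this stromal library in the 411 cells labelled Thymocyte, at 313 CPM (287 to 341). The label vSMC/PC, whose list of mural genes (Rgs5, Acta2, Myh11 and others) summed to 4501 CPM, came next at 117 CPM (106 to 129). The fibroblast labels followed, with TMC1 at 60.4 CPM, TMC3 at 49.8 CPM, TMC2 at 40.7 CPM, capFb at 32.7 CPM and TMC4 at 24.4 CPM. These 5 labels held 67.0% of all Angpt1 UMIs in 62.3% of the cells. Vessel cells were near the bottom, with capEC at 4.05 CPM, 28.9-fold (18.1 to 49.4) lower than vSMC/PC. Thymocyte genes moved with the first of these values: their summed level was 6211 CPM in the Thymocyte label, 19 CPM in vSMC/PC and 7.48 CPM in TMC1. In the 429 vSMC/PC cells without any UMI of the thymocyte list Angpt1 stood at 112 CPM, and in such TMC1 cells at 62.2 CPM, so those levels were as large without them.

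In the thymocyte library the same ligand was plentiful and uneven. The label DP held 615 CPM of Angpt1 (604 to 627, 11641 UMIs in 5202 cells), DP-sig 404 CPM, Pre DP-sig 308 CPM, AgoSel1 194 CPM, DP-P 172 CPM and DN 147 CPM. Levels were low in mature cells, with 75.8 CPM in Mature CD4-2, 21.1 CPM in Mature CD8-1, 8.86 CPM in Mature CD4-1 and no UMI in the 27 cells of Mature CD8-2, where 3 UMIs would be 7.25 CPM. Several labels not called mature were low too, with 65.0 CPM in Immature CD4-2, 62.5 CPM in intCD4 and 52.9 CPM in Immature CD8-1. Immature CD8-2 was at 12.9 CPM and Treg at 3.16 CPM, while Immature CD4-1 was at 119 CPM. DP cells were thus 18.0-fold (15.1 to 21.7) over the mature single-positive labels pooled, 4.20-fold (3.98 to 4.42) over DN and 3.59-fold over DP-P. Among 12666 genes with at least 20 UMIs there, 9.13% were at least 3-fold higher in DP and 6.4% at least 3-fold lower. Angpt1 was the only one of the 9 genes at least 3-fold higher in DP, and Tie1 the only one at least 3-fold lower, on 15 UMIs in DP and 11 in mature cells. The label B+myeloid, which should hold few thymocytes, stood at 25.9 CPM. An Angpt1 UMI was found in 58.6% of DP cells at a median of 3206 UMIs and in 12.4% of B+myeloid cells at a median of 11506.5, or 34.3% and 1.85% after thinning.

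Angpt2, the antagonist that loosens vessels, followed another order in thymocytes, with 23.6 CPM in DP-P, 23.1 CPM in gdT, 21.5 CPM in DN and 11.9 CPM in DP. DP-P was 1.99-fold (1.68 to 2.35) over DP, so the ligands went in opposite directions between these labels. The whole thymocyte library held 279 CPM of Angpt1 against 37.1 CPM in the labelled stromal library, and 3.12 CPM of Vegfa against 130 CPM. The libraries were prepared with different enzymes, and that part of the difference was not tested. Receptors were at or near 0 in DP cells, with 1 to 17 UMIs of each of the 5. In gdT, 128 cells at a median of 19803.5 UMIs, Tie1 was at 13.6 CPM (9.57 to 18.7, 37 UMIs) in 19.5% of cells, with 10 UMIs of Tek and 1 of Cdh5, while B+myeloid held 7.95 CPM of Tie1 (4.79 to 12.4) in 10.0% of cells. The B+myeloid cells held 125 UMIs of Kdr and 54 of Flt1, beside 25.1 CPM of the endothelial cadherin Cdh5.

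**Figure D3:**
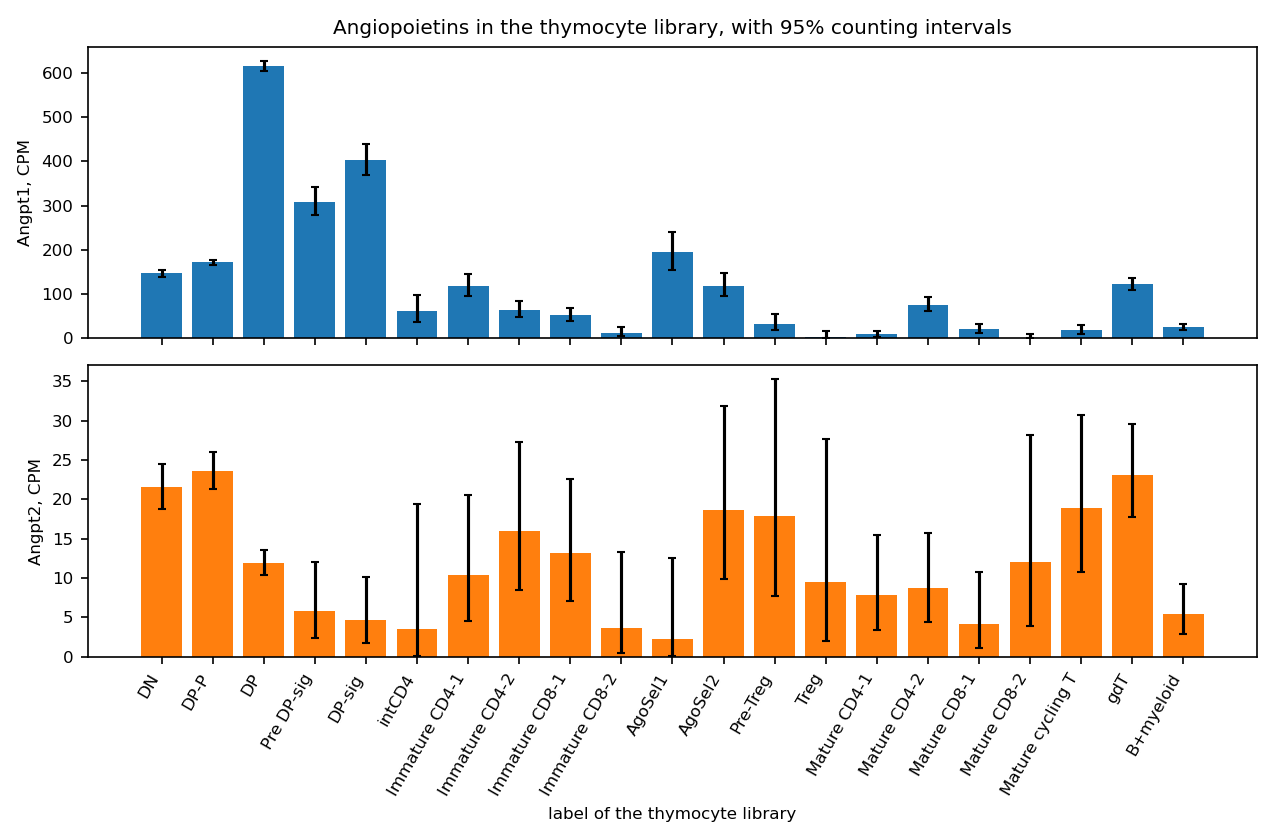
Levels of Angpt1 (top) and Angpt2 (bottom) in the 21 labels of the thymocyte library, in CPM with 95% counting intervals. Angpt1 is highest in DP at 615 CPM and at most 75.8 CPM in the mature labels, while Angpt2 stays at or under 23.6 CPM.

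In the stroma, Angpt2 was led by mural cells and then by endothelium. The level was 185 CPM in vSMC/PC (171 to 200), 84.6 CPM in vEC (75.4 to 94.6), 65.2 CPM in capEC (57.9 to 73.1), 62.0 CPM in cTEC (55.2 to 69.3) and 36.2 CPM in aEC. The value in vSMC/PC was 2.19-fold (1.91 to 2.52) over vEC, while capEC and cTEC overlapped. Both angiopoietins were therefore high in vSMC/PC, and the fibroblast labels, which carried Angpt1, held almost no Angpt2 (2.48 CPM, against 42.1 CPM in all other labels). Among vessels, vEC was 2.34-fold (1.59 to 3.55) over aEC, and capEC was at 0.771 of vEC, or 1.04 after thinning to 1000 UMIs. By UMIs, epithelial labels held 34.0% of Angpt2, endothelium 26.1% and vSMC/PC 26.1%. An Angpt2 UMI was in 58.4% of vSMC/PC cells, 32.4% of cTEC cells and 3.41% of Thymocyte-label cells, or 20%, 4.78% and 1.29% after thinning. In the 420 of 448 cTEC cells without a UMI of Pecam1, Cdh5, Flt1 or Tie1 the level was 60.5 CPM, as large as in the whole label.

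Kdr, the main signalling receptor for Vegfa, was an endothelial gene with its peak in capEC. It stood at 768 CPM in capEC (742 to 794), 367 CPM in aEC (326 to 412) and 265 CPM in vEC (248 to 282), with no overlap between these intervals. Cells labelled capEC were 2.90-fold (2.70 to 3.12) over vEC and 2.09-fold (1.86 to 2.36) over aEC. Pooled endothelium held 526 CPM against 9.21 CPM elsewhere, a ratio of 57.2 (53.6 to 61.1), which other settings moved to between 25.9 and 97.1. A Kdr UMI was in 90.1% of capEC cells and 0.243% of Thymocyte-label cells, and in 51.5% of thinned capEC cells and 0 of 387 thinned Thymocyte-label cells (up to 0.775% of cells with a UMI by a floor of 3 cells, and 0.949% by the exact interval). The B cell label, deeper at a median of 14761 UMIs, held more Kdr than the Thymocyte label, with 58 UMIs against 2.

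Flt1, the high-affinity VEGF receptor, was the most endothelial of the 9 genes by this ratio. Its level was 1844 CPM in capEC (1804 to 1885), 1267 CPM in aEC and 1249 CPM in vEC, and aEC and vEC did not differ beyond counting error. In the cells of the authors' cluster Endo-1 alone they did, at 1644 CPM (1525 to 1769) and 1400 CPM (1357 to 1443), under capEC at 2157 CPM. The level in capEC was 1.48-fold (1.42 to 1.53) that in vEC, a smaller step than for Kdr. Elsewhere the pooled level was 5.97 CPM, and the ratio was 259.5 (241 to 280). Other settings moved it beyond this interval, from 66.4 with an unweighted mean of the other labels to 416.8 with the initial clusters. Endothelium held 95% of Flt1 UMIs and 80.6% of Kdr UMIs, and epithelial labels held 15.0% of Kdr.

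Tie1 lay mostly in vessels, at 194 CPM in capEC (181 to 207), 157 CPM in vEC and 134 CPM in aEC. The order of capEC and aEC turned after thinning, where capEC was at 0.988 of aEC. Endothelium was 116-fold (99.5 to 136) over the other labels, 32.6 to 171.8 under other settings, and held 89.4% of Tie1 UMIs. Tek, its partner, was even across the endothelial labels, with 348 CPM in aEC, 342 CPM in vEC and 322 CPM in capEC and overlapping intervals. Its ratio of endothelium to the rest was 10.1 (9.61 to 10.6), and 51.8% of its UMIs lay in fibroblast labels and 42.2% in endothelium. All 4 of Kdr, Flt1, Tek and Tie1 were detected together in 46.4% of capEC, 57.0% of vEC and 48.9% of aEC cells. After thinning these shares were 2.09%, 1.18% and 2.22%, and the median depth was 5805.5 UMIs in capEC and 9585.5 in vEC. Of the 5 receptors, 4 had their highest label in endothelium, against 9.04% of genes tested. None of the 9 genes had a highest label at least 3-fold above the next, against 8.68% of genes tested. With the mean of the cells' CPM, or after thinning, the count was 2, with Angpt1 at 3.53 and 3.35 and Angpt2 at 3.03 and 3.40, and with the initial clusters it was 1.

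Tek had a clear level outside vessels, in the label capFb. There it stood at 189 CPM (183 to 196, 3057 UMIs), against 23.2 CPM in TMC1, a ratio of 8.14 (7.26 to 9.16). The level in capEC was 1.70-fold (1.60 to 1.81) that in capFb. A Tek UMI was found in 82.1% of capFb cells and 3.41% of Thymocyte-label cells, or 16.8% and 0.258% after thinning. The B cell label held 62 Tek UMIs in 2856120. The rest of the vessel programme was near 0 in the same cells: capFb held 5 UMIs of Tie1, 13 of Kdr, 21 of Flt1 and 15 of Cdh5, in 16161574 UMIs. The UMI ratio of Tek to Tie1 was 611 (262 to 1884) in capFb, 1.66 in capEC, 2.17 in vEC and 2.61 in aEC. In the 1242 of 1358 capFb cells without a UMI of Pecam1, Cdh5, Flt1 or Tie1, Tek was at 192 CPM (185 to 199), as large as in the whole label. The same label led for Vegfa, and its Tek-positive cells held 353 CPM of Vegfa against 388 CPM in the others.

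Kdr had a smaller level outside vessels, in epithelium. It was at 45.9 CPM in early Pr (42.1 to 49.8, 557 UMIs), 24.9 CPM in mTEC1 and 16.8 CPM in cTEC. In aaTEC2 it was at 38.4 CPM on 21 UMIs. Outside the endothelial labels Kdr was highest in nmSC at 183 CPM (52 UMIs), the label with 995 CPM of the endothelial list. The B cell label held 58 Kdr UMIs in 2856120, against 84 in 4987504 in cTEC and 160 in 6432876 in mTEC1. The part of RNA from other cells in these levels was not tested. The label early Pr was 2.72-fold (2.16 to 3.47) over cTEC, and 27.3% of its cells had a Kdr UMI, or 3.55% after thinning. The UMI ratio of Kdr to Flt1 was 3.36 (2.82 to 4.01) in early Pr, against 0.416 in capEC, 0.290 in aEC and 0.212 in vEC, so the proportion of the receptors there differed from that in each endothelial label. This was not particular to early Pr. The ratio was also above 1 in mTEC1 (2.71), cTEC (1.71), MEC (2.57) and the B cell label (2.42, 1.48 to 4.07). In the 945 of 1018 early Pr cells without a UMI of Pecam1, Cdh5, Flt1 or Tie1, Kdr was at 41.0 CPM (37.3 to 44.9). In the 73 cells with such a UMI it was at 95.9 CPM. Across early Pr, cells with a Kdr UMI had 26.3 CPM of Cdh5 against 1.05 CPM in cells without, and 1163 CPM of the epithelial gene Epcam against 1225 CPM. Of the 557 Kdr UMIs in early Pr, 453 lay in the cells without the vessel genes.

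**Figure D4:**
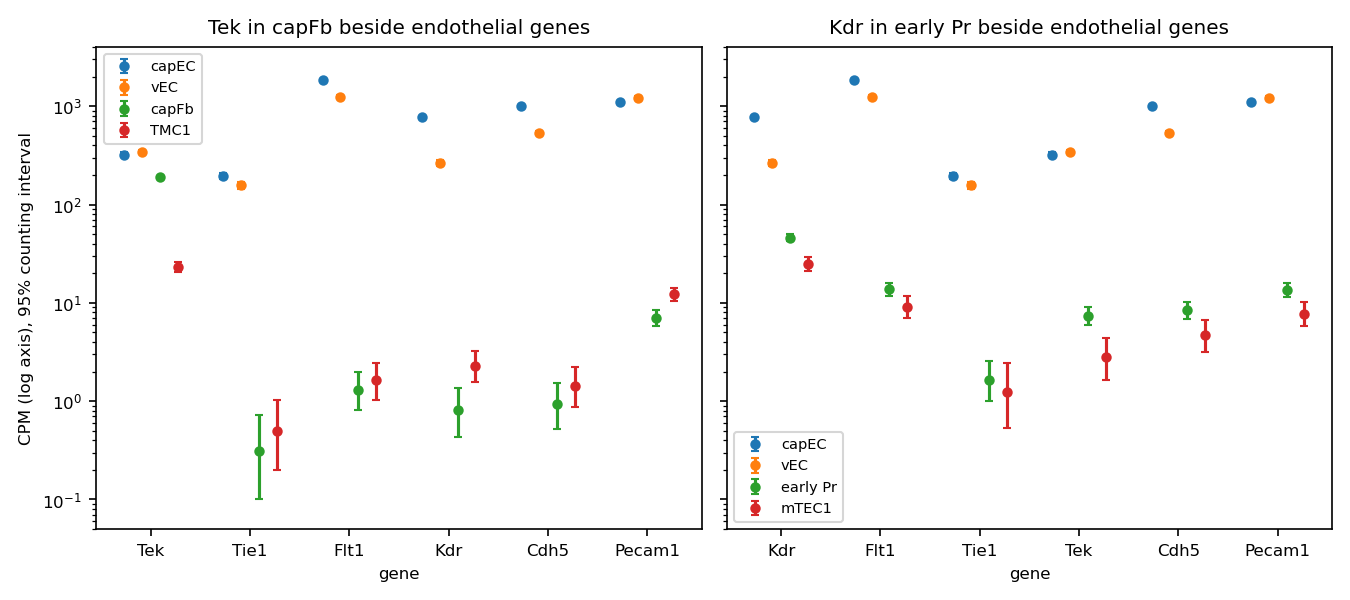
Levels (CPM, log axis, with 95% counting intervals) of the receptors Tek, Tie1, Flt1 and Kdr and of Cdh5 and Pecam1. The left panel shows capEC, vEC, capFb and TMC1, with Tek at 189 CPM in capFb and Tie1 at 0.309 CPM there, and the right panel shows capEC, vEC, early Pr and mTEC1, with Kdr at 45.9 CPM in early Pr and Tie1 at 1.65 CPM.

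Flt4, the receptor of Vegfc, was sparse, with 189 UMIs in all labelled cells. Its level was 31.7 CPM in nmSC (14.5 to 60.3, from 9 UMIs in 39 cells), 16.6 CPM in capEC (13.1 to 20.9), 8.74 CPM in aEC and 6.36 CPM in vEC, and nmSC and capEC overlapped. Endothelium held 55.0% of its UMIs, and the ratio was 16.9 (12.6 to 22.8), or 4.53 to 51.5 under other settings. Epithelial labels held 31.2% (59 UMIs), at 2.06 CPM against 11.7 CPM in endothelium. The authors' clusters split the endothelial labels into Endo-1 (879 cells) and Endo-2 (190 cells), which did not carry the genes evenly. Flt4 was at 28.8 CPM in Endo-2 and 6.95 CPM in Endo-1, a ratio of 4.15 (2.77 to 6.23). Of the 9 genes, 3 were at least 3-fold higher in Endo-2 (Vegfa, Angpt1 and Flt4), against 8.88% of genes tested, and none was at least 3-fold lower, against 1.23%. Vegfa was at 92.6 CPM in Endo-2 and 7.38 CPM in Endo-1, and the fibroblast collagen Col1a1 at 2949 and 64.3 CPM. Lymphatic genes moved with Flt4: Prox1, the factor that sets lymphatic identity, was at 73.0 CPM in Endo-2 and 0.579 CPM in Endo-1.

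The cells of cluster Endo-2 were therefore divided by the lymphatic genes Prox1, Lyve1 and Mmrn1. This division was chosen after their values were seen, did not use Flt4 and is described with no test. The cluster has 243 cells, since cells of other labels join the 190 with an endothelial one. Of these, 36 had UMIs of at least 2 of these genes, 8 had 1 and 199 had none, while 0 of 882 Endo-1 cells had 2 or more. The 36 cells carried the labels capEC (21 cells), vEC (7), nmSC (5), aEC (2) and aaTEC2 (1). No label of its own set them apart. They also had 45911 CPM of Ccl21, a chemokine of lymphatic endothelium, 580 CPM of Pdpn and 346 CPM of Cdh5, with 3 UMIs of Epcam. Ccl21 was not particular to them, at 22085 CPM in TMC4 and 12495 CPM in mTEC1.

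In these 36 cells the receptor set was unlike that of the other endothelium. Flt4 stood at 231 CPM (177 to 296), with a UMI in 27 of 36 cells, 33.3-fold (22.5 to 49.5) over Endo-1. Flt1 had no UMI among 268891, where 3 UMIs would be 11.2 CPM, so against this floor it was at least 161.5-fold lower than in Endo-1 at 1802 CPM. The exact upper bound of its level was 13.7 CPM. With 0 of 36 cells, a floor of 3 cells puts the share of cells with a Flt1 UMI at up to 8.33%, and the exact interval at up to 9.74%. Kdr, at 599 CPM (510 to 699), did not differ from Endo-1 beyond counting error (ratio 0.988, 0.839 to 1.16). Tie1 was 1.45-fold (1.14 to 1.83) higher at 283 CPM, and Tek, at 100.4 CPM (66.2 to 146), was at a ratio of 0.268 (0.176 to 0.391). General endothelial genes were lower against Endo-1 too, with intervals that overlap that of Tek. Ptprb was at 0.315 (0.260 to 0.379), Pecam1 at 0.354 (0.294 to 0.422) and Cdh5 at 0.384 (0.310 to 0.471). Against the 199 Endo-2 cells with no lymphatic gene, Tek was at 0.615 (0.400 to 0.910). The VEGF co-receptors were also shifted, with Nrp2 at 986 CPM against 218 CPM in Endo-1 and Nrp1 at 123 CPM against 599 CPM. Vegfc itself was at 3 UMIs here, a ratio of 0.140 (0.0289 to 0.413) to Endo-1.

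These 36 cells held 62 of the 189 Flt4 UMIs of labelled cells. Without them, capEC held 9.51 CPM of Flt4 (6.83 to 12.9), aEC 2.57 CPM and vEC 2.52 CPM, and nmSC had no UMI, so all of its Flt4 lay in 4 of the 5 nmSC cells left out. The ratio of endothelium to the rest fell to 9.80 (6.75 to 14.1) for Flt4 without these cells and was 265.7 for Flt1, 58.9 for Kdr, 121 for Tie1 and 10.3 for Tek. Endothelium then kept 52 Flt4 UMIs, while epithelial labels held 59 with all their cells. In the 199 Endo-2 cells without the lymphatic genes, which include cells without an endothelial label, Flt4 was at 2.69 CPM and Flt1 at 671 CPM. They held 148 CPM of Epcam, against 26.2 CPM in the 190 Endo-2 cells with an endothelial label, and 95.9 CPM of Vegfa, against 40.9 CPM of Vegfa in the 36 cells with lymphatic genes.

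**Figure D5:**
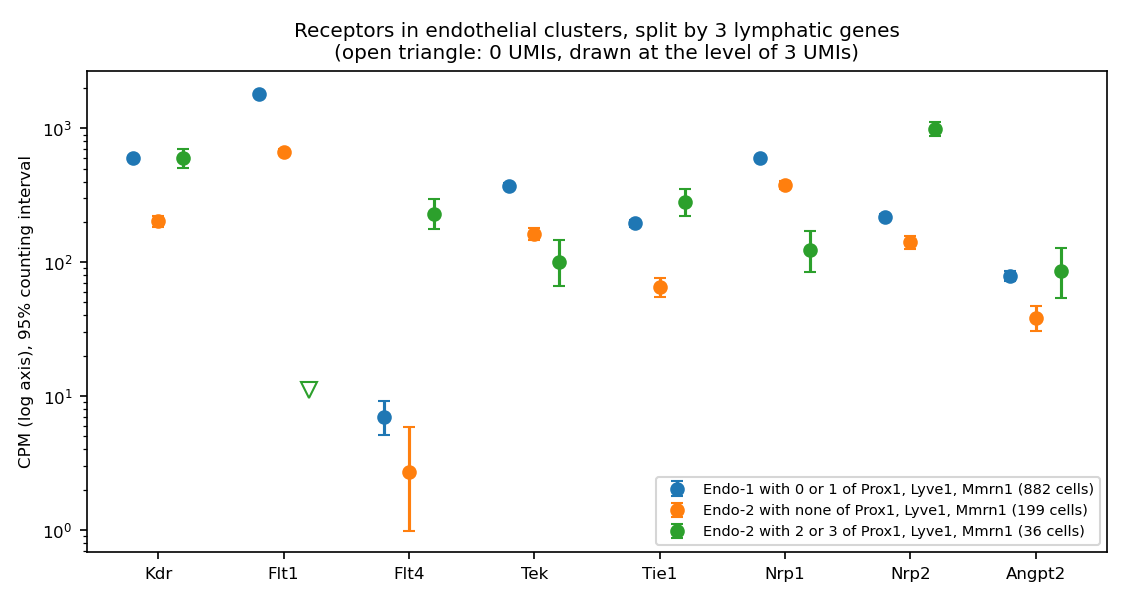
Levels (CPM, log axis, with 95% counting intervals; an open triangle marks no UMI, drawn at the level of 3 UMIs) of the 5 receptors, the co-receptors Nrp1 and Nrp2, and Angpt2 in the 882 cells of cluster Endo-1, in 199 Endo-2 cells with none of Prox1, Lyve1 and Mmrn1, and in the 36 Endo-2 cells with at least 2 of them. Flt4 is 231 CPM in the 36 cells and 6.93 CPM in Endo-1, and Flt1 has no UMI in the 36 cells.

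The wider pathway was read from 43 other genes. In endothelium 15 were at least 3-fold higher, 9 at least 3-fold lower and 19 neither, and 15 had their highest label there, against 6.44%, 16.3% and 9.04% of all genes tested for higher, lower and highest label. The median ratio was 1.78, against 0.816 over all genes, and the share of the list that was lower was near that of all genes. Of the 5 other VEGF genes, Vegfd, another ligand of Flt4, was higher at 5.58-fold, with 36.8 CPM in vEC and 2.02 CPM in capEC. The ligands Vegfb (0.277) and Pgf (0.230) were lower. The co-receptor Nrp1 was at 819 CPM in capEC and 215 CPM in vEC, a 3.81-fold step (3.52 to 4.12), although endothelium as a whole was 1.84-fold over the rest. Nrp1 thus followed the order of Kdr between capEC and vEC.

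On the angiopoietin side, 1 of 6 genes was higher in endothelium and 4 were lower (all genes, 6.44% and 16.3%). Ptprb, the phosphatase that restrains Tek, was 220-fold (203 to 239) higher. The lower ones were Angptl1 (0.131), Svep1 (0.163), Angptl2 (0.178) and Angpt4 (0.212), and Angptl4 was at 0.390. Angpt4, another ligand of Tek, was highest in capFb at 104 CPM, with a UMI in 59.7% of cells, in the same label that carried Tek. Ligand and receptor RNA were thus both present in capFb.

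Of 13 listed genes that can respond to VEGF or flow in endothelium, 9 were at least 3-fold higher there and none lower, against 6.44% and 16.3% of all genes. The list was drawn up for endothelium with earlier results of these data known, so this count does not measure a response. The largest ratios were for Aplnr (231), the fenestral diaphragm gene Plvap (230), the guidance receptor Robo4 (218), the nitric oxide synthase Nos3 (208) and Esm1 (83.7). Dll4 (19.9), Apln (16.6), Klf2 (11.5) and Mcam (6.17) were the others, and Foxo1, Unc5b, Kcne3 and Cxcr4 lay between 1.55 and 2.21. Mcam, also on the list of mural genes, was highest in vSMC/PC at 240 CPM, against 93.3 CPM in capEC. The response genes did not share 1 order within endothelium. Esm1 was at 124 CPM in capEC with no UMI in vEC (3 UMIs would be 0.829 CPM), Apln at 126 and 11.1 CPM, and Klf2 at 1534 and 629 CPM, but Plvap was at 1765 CPM in capEC and 2686 CPM in vEC, and Foxo1 was highest in vEC at 212 CPM. An Esm1 UMI was in 14.5% and an Apln UMI in 12.6% of capEC cells, against 90.1% for Kdr. In the next lists, where the shares of all genes are again 6.44% higher and 16.3% lower, the counts were small. Of 7 soluble and adhesion partners, Sema3g (35.8) and Itga5 (3.94) were higher and Sema3c (0.205) lower. Of 12 hypoxia genes around Vegfa, Epas1 (5.77) and Egln3 (3.15) were higher, and Adm (0.264) and Car9 (0.316, 0.0644 to 0.945, on 3 UMIs in endothelium) lower, a share near that of all genes. Hif1a was at 1.57, and Adm was highest in TMC2 at 156 CPM, where Vegfa was lowest of the fibroblast labels.

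For each of the 9 genes the genes with the most similar profile were found over the 18 labels of at least 50 cells, as Pearson's r of log2(CPM + 1). The labels come from 1 library and share its depth and free RNA, so these are descriptions with no p-value. Flt1 was closest to Tmem45b (0.982), Plvap (0.977) and Adgrl4 (0.977), and Tie1 to Ramp3 (0.979), Adgrl4 (0.972) and Fam167b (0.966). Kdr was closest to Lmcd1 (0.940), Mall (0.936) and Flt4 (0.922), and Flt4 to Plekhg5 (0.934), F2rl1 (0.932) and N4bp1 (0.928). Tek, with its level in capFb, was closest to Ablim3 (0.940), Cmklr2 (0.928) and Hecw2 (0.920). None of the receptors had another receptor first. Among ligands, Vegfa was closest to Wnt5a (0.926), Antxr1 (0.905) and Ctsh (0.892), and Vegfc to Plod3 (0.927), Il10rb (0.926) and Acer2 (0.911). Angpt1 was closest to Rasal3 (0.895), Ahi1 (0.868) and Gpsm3 (0.848), and Angpt2 to Camk2g (0.910), Cav2 (0.867) and Tinagl1 (0.843).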

How the data were processed

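Each deposited matrix gives, for every gene and barcode, a raw UMI count; the headers name Cell Ranger 8.0.0 as the tool the authors used. The build mRatBN7.2 and Seurat 5.3.0 are named in the submitters' processing notes; filters on barcodes and the treatment of doublets are not given in the sources used here. The authors' percent of UMIs from mitochondrial genes, deposited for each cell, reached 4.991 in labelled stromal cells and was not used to filter. Labels are the authors', taken as the projected label or, where none was given, the cluster; the method of projection is not given in the sources used here.

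UMIs were summed per label and divided by the label's total. The 5 labels under 20 cells (33 cells) were left out. Levels have exact Poisson intervals, shares exact Clopper-Pearson intervals, and ratios intervals from the exact binomial split of the UMIs, all at 95%. A denominator under 3 UMIs was set to 3 UMIs. A gene was counted as higher or lower at 3-fold on at least 20 UMIs. Shares were also computed after thinning cells to 1000 UMIs, which left out 83 stromal and 51 thymocyte-library cells. UMIs of 1 cell are not independent cells, and true uncertainty is larger than the intervals.

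The text names the 9 genes, 43 genes of a pathway list and, for each of the 9, the 3 genes of highest correlation among those with at least 100 UMIs; markers come from cell type lists. The 9 genes and the lists were chosen with earlier results of these data known. Promoter windows come from RefSeq on GRCr8, a different build from that of the counts, and were used for sequence alone. On simulated counts for 19880 genes, 93 of 100 genes raised 4-fold, 100 of 100 raised 8-fold and 44 of 19680 unchanged genes were counted as higher. Calls of lower genes were not counted there, and the simulated counts held counting error only. Alternatives covered filters on cells, the mean of the cells' CPM, other totals, thinning, other labels and other ways to combine labels. Scripts used pandas 2.3.3, SciPy 1.17.1, NumPy 2.4.6 and matplotlib 3.10.9 under Python 3.11.15, with random seed 7.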

Additional observations from a re-analysis of the deposited data

Results flagged for a closer look

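The 2934 stromal barcodes without a label belong to no comparison above, yet all 9 genes were present in them, above the level that 3 UMIs would give (0.346 CPM). Among ligands, Vegfa stood at 67.4 CPM there against 130 CPM in labelled cells, Vegfc at 25.3 against 68.7 CPM, Angpt1 at 30.8 against 37.1 CPM and Angpt2 at 18.7 against 18.3 CPM. Among receptors, Kdr stood at 30.4 against 44.1 CPM, Flt1 at 48.1 against 110 CPM, Tek at 24.9 against 53.1 CPM and Tie1 at 8.43 against 13.1 CPM. Flt4 was the exception in direction among the receptors, at 3.81 CPM (33 UMIs) against 1.44 CPM, a ratio of 2.65 (1.77 to 3.85). Why these barcodes carry no label is not given in the sources used here.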

How the results depend on the processing

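Of 305 values recomputed under another setting, 230 stayed within their counting interval or, for counts, within 1.5 times, 72 moved further and 3 ratios whose interval lay on 1 side of 1 crossed it. Another 6 ratios crossed 1, each with an interval in the report that held 1: TMC2 over aEC for Vegfc (0.852), capEC over aEC for Flt4 (0.722) and capEC over vEC for Tek (1.07), all after thinning, and aEC over vEC for Tek, at 0.990 to 0.995 under 3 settings. The count of genes at least 3-fold higher in endothelium was 6, and that of lower ones 2, under every setting run, and 4 or 5 receptors were highest in an endothelial label. The cause of each shift was not tested. With the mean of the cells' CPM in place of summed UMIs, the ratio of endothelium to the rest was 0.118 for Vegfa, 0.0770 for Angpt1, 3.52 for Angpt2, 80.7 for Kdr, 322.9 for Flt1, 23.1 for Flt4 and 12.2 for Tek. With cells thinned to 1000 UMIs it was 0.144 for Vegfa, 1.28 for Vegfc, 3.97 for Angpt2, 97.1 for Kdr, 358.4 for Flt1, 51.5 for Flt4, 11.6 for Tek and 171.8 for Tie1. With the initial clusters as labels it was 0.220 for Vegfa, 64.9 for Kdr, 416.8 for Flt1 and 142.6 for Tie1. With labels of at least 50 cells it was 61.3 for Kdr and 307.9 for Flt1, and in cells with fewer than 3 thymocyte UMIs it was 142.7 for Tie1. With an unweighted mean of the other labels it was 0.296 for Vegfa, 1.49 for Vegfc, 3.42 for Angpt2, 25.9 for Kdr, 66.4 for Flt1, 4.53 for Flt4, 13.8 for Tek and 32.6 for Tie1. In the 658 endothelial cells (61.5%) without a UMI of Pdgfrb, Col1a1, Epcam or Ptprc it was 0.0376 for Vegfa, 0.0328 for Angpt1, 5.85 for Angpt2, 70.2 for Kdr, 297.98 for Flt1 and 11.8 for Tek. With endothelial cells of cluster Endo-1 alone, a setting chosen after seeing the data, it was 0.0537 for Vegfa, 0.0882 for Angpt1, 5.43 for Angpt2, 65.8 for Kdr, 301.7 for Flt1, 10.01 for Flt4 and 11.3 for Tek. The number of genes whose highest label was at least 3-fold above the next was 0, but 2 with the mean of the cells' CPM, 2 after thinning and 1 with the initial clusters. Angpt1 in DP over mature thymocytes was 22.1 with the mean of the cells' CPM and 24.2 after thinning, both settings chosen after seeing the data for that library. After thinning, Tie1 in capEC was 0.988 of its level in aEC (1.45 at full depth), which was then the highest label, and Angpt2 in capEC was 1.04 of its level in vEC (0.771 at full depth). No paired analysis was possible because there was 1 sample per group. Depth limits Flt4 most, with 189 UMIs, and the labels of fewer than 50 cells, where a few cells set a level.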
